A study of Mus musculus with 31 samples.

Results

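The genes described here are 5 ligands and 3 receptors of the epidermal growth factor receptor (EGFR, or ErbB) family. The ligands are Areg (amphiregulin), Hbegf (heparin-binding EGF-like growth factor), Ereg (epiregulin), Tgfa (transforming growth factor alpha) and Btc (betacellulin), and the receptors are Egfr, Erbb2 and Erbb3. They were chosen by name: a probe was taken where its gene symbol, or the current symbol of its RefSeq accession, was one of these 8. This gave 8 genes of 21983 named on the array and 10 probes of 55681, since Egfr had 3 probes and every other member had 1. Of the 8 genes, 7 passed the filter on dim probes and were tested; Ereg did not pass.

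RNA was taken from whole lungs of 31 female C57BL/6 mice (C57Bl/6J in the protocol), 6 weeks old, and each mouse gave 1 one-colour Agilent array. Mice of every group were anaesthetised with xylazine and ketamine and received 200 µl through the tail vein, either physiological serum (called saline here) or oleic acid at 1.2 µl per g body weight. Oleic acid given into a vein is a widely used way to injure the lung, since the fatty acid reaches the small vessels of the lung first. Lungs were taken at 1, 1.5, 3, 4, 18 and 24 h. Anaesthesia and injection were shared by both arms, and no uninjected mice were analysed here. Replicate 3 of the 1.5 h oleic acid mice and replicate 2 of those at 3 h were left out because the spike-in standards on their arrays gave slopes of 1.66 and 0.751. The 29 arrays used fell into groups of 3, 2, 2, 2, 2 and 2 saline mice and 3, 2, 2, 3, 3 and 3 oleic acid mice in order of time.

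EGFR ligands are made as membrane proteins and are cut from the cell surface, mainly by the metalloprotease Adam17, to reach receptors on the same or nearby cells. Ligand binding pairs EGFR with itself or with ErbB2, which has no known ligand, or ErbB3, which binds neuregulins and has little kinase activity of its own. In the lung the pathway is known for repair of the airway and alveolar epithelium after damage, and amphiregulin is also made by several kinds of immune cell. Whole-lung RNA holds the epithelium, vessels, stroma and blood cells together, so fewer cells of a type and less RNA per cell cannot be told apart in these values.

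Values are log2 signals after subtraction of the 75th percentile taken over that array's spots, so 1 unit is a doubling and a value of 0 lies at that percentile. A probe counts as detected on an array where the scanner software set it well above background. On the 29 arrays the spike-in slopes were 0.937 to 1.06 and between 51.18% and 82.39% of spots were well above background, with 5 arrays over 70%. Defining lung genes were detected on all 29 arrays, with log2 values of 9.29 to 10.33 for Sftpc (type 2 cells), 9.42 to 10.47 for Scgb1a1 (club cells), 5.31 to 6.28 for Ager (type 1 cells), 6.04 to 7.38 for Cldn5 (endothelium) and 3.91 to 4.78 for Col1a1 (fibroblasts). The arrays lay on 4 slides that largely follow time. All 1 h arrays were on slide 1 and all 4 h arrays on slide 3. Saline at 18 h was on slide 3, while oleic acid at 18 h and both 24 h groups were on slide 4.

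Because Egfr was read by several probes that did not move together, and because Ereg and Btc were near background, the probes themselves are shown. Each probe has 60 bases, and the first 30 are printed 5′ to 3′ as the array design gives them, with mm9 positions of the whole probe. None of these letters is singled out, so there are no capitals. The Areg probe (accession NM_009704) lies at chr5:91570090-91570149 on the plus strand, the Ereg probe (NM_007950) at chr5:91522553-91522612 on the plus strand and the Btc probe (NM_007568) at chr5:91786948-91787007 on the minus strand. These 3 ligand genes therefore sit close together on chromosome 5. The Egfr probes all lie on the plus strand of chromosome 11: A_52_P106259 (NM_207655) at chr11:16813815-16813874, A_55_P1956863 (NM_007912) at chr11:16783556-16783615 and A_55_P1956862 (NM_007912) at chr11:16787172-16787231.
Areg A_52_P482897: ctcagaggagtatgataatgaaccacaaat
Ereg A_55_P2096947: gatagtcatgtaccttgacatagtgaagga
Btc A_52_P672689: ggatccttgtacattttactttacaagaga
Egfr A_52_P106259: gttgcaagccactctaactgtagcaatgaa
Egfr A_55_P1956863: tctggaagtatgcagatgccaataatgtct
Egfr A_55_P1956862: gaagtgtggccatctgggtacgttcaatgg

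Areg, a ligand whose transcript is induced by cyclic AMP, by ERK signalling and by EGFR itself, varied most of the 8 genes, and it did so in both arms. Its group means ran from -3.84 ± 0.04 (SD, n = 2) in saline at 1.5 h to 0.56 ± 0.98 (n = 2) in saline at 4 h, a 21.2-fold range against a pooled SD of 0.71 log2 units. It was detected on all 29 arrays.

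At 1 h Areg read -1.08, -1.68 and -3.04 in the saline mice and -2.62, -2.71 and -3.13 in the oleic acid mice. At 1.5 h the saline mice read -3.81 and -3.87 and the oleic acid mice -3.65 and -2.37. At 3 h the values were -1.07 and 0.01 with saline and -2.34 and -1.57 with oleic acid. The 1.5 h saline pair was the lowest of all groups, and by 3 h every mouse of either arm lay above every 1.5 h mouse, the lowest of them by a small margin. At 4 h the saline mice read -0.13 and 1.25 and the oleic acid mice -0.71, 1.08 and -0.73. At 18 h the values were -0.76 and -1.83 with saline and -1.50, -1.26 and -1.85 with oleic acid. At 24 h they were -1.29 and -1.97 with saline and -2.07, -1.06 and -2.10 with oleic acid. The 4 h groups were thus the highest in each arm, and the 18 and 24 h groups lay between the early low and the 4 h level. In the order of the 12 group means only 2 neighbouring pairs did not overlap: oleic acid at 3 h above oleic acid at 1 h, and oleic acid at 1.5 h above saline at 1.5 h.

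Areg differed between times within the saline arm in the moderated F test of limma (adjusted p = 0.0110), and within the oleic acid arm (adjusted p = 0.0347). Across all 25115 features tested, 4.64% passed this test in saline and 4.67% in oleic acid. From 1 h to 4 h Areg rose by 2.49 log2 units in saline mice (95% interval 1.2 to 3.79, 5.64-fold, adjusted p = 0.0408) and by 2.70 in oleic acid mice (1.54 to 3.86, 6.50-fold, adjusted p = 0.0127). In these comparisons 2.27% and 3.78% of all features passed. From 1.5 h to 3 h it rose by 2.18 over both arms (1.18 to 3.19, 4.54-fold, adjusted p = 0.0285), where 1.31% of features passed. From 4 h to 18 h in saline mice, groups on the same slide, the difference of -1.86 (-3.28 to -0.44) missed the threshold (adjusted p = 0.108). The 3 comparisons of 4 h with 1 h and of 3 h with 1.5 h were added after the values had been seen.

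These Areg differences rest on few mice. The saline call from 1 h to 4 h was lost without any 1 of its 5 arrays (1.80 to 3.19 log2 units, adjusted p 0.0533 to 0.276). The oleic acid call was lost without oleic acid 1 h replicate 2 or 4 h replicate 2 (adjusted p up to 0.0568), and the call from 1.5 h to 3 h was lost without any of 5 of its 8 arrays (both saline mice and oleic acid replicate 1 at 1.5 h, and saline replicate 2 and oleic acid replicate 3 at 3 h). The F test in saline passed in each of 13 fits that left out 1 array (adjusted p up to 0.0486), and that in oleic acid was lost without any of 9 of 16 arrays (all oleic acid mice at 1 h and 4 h, 1.5 h replicate 1, 18 h replicate 2 and 24 h replicate 1). With slide as a fixed term, which rests on the 2 groups that span slides, the rises from 1 h to 4 h were 1.78 and 1.99 with adjusted p of 0.878 and 0.768, so the part of slide in them was not separated. Within slide 2 alone the rise from 1.5 h to 3 h was 2.00 (adjusted p = 0.190).

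**Figure D1:**
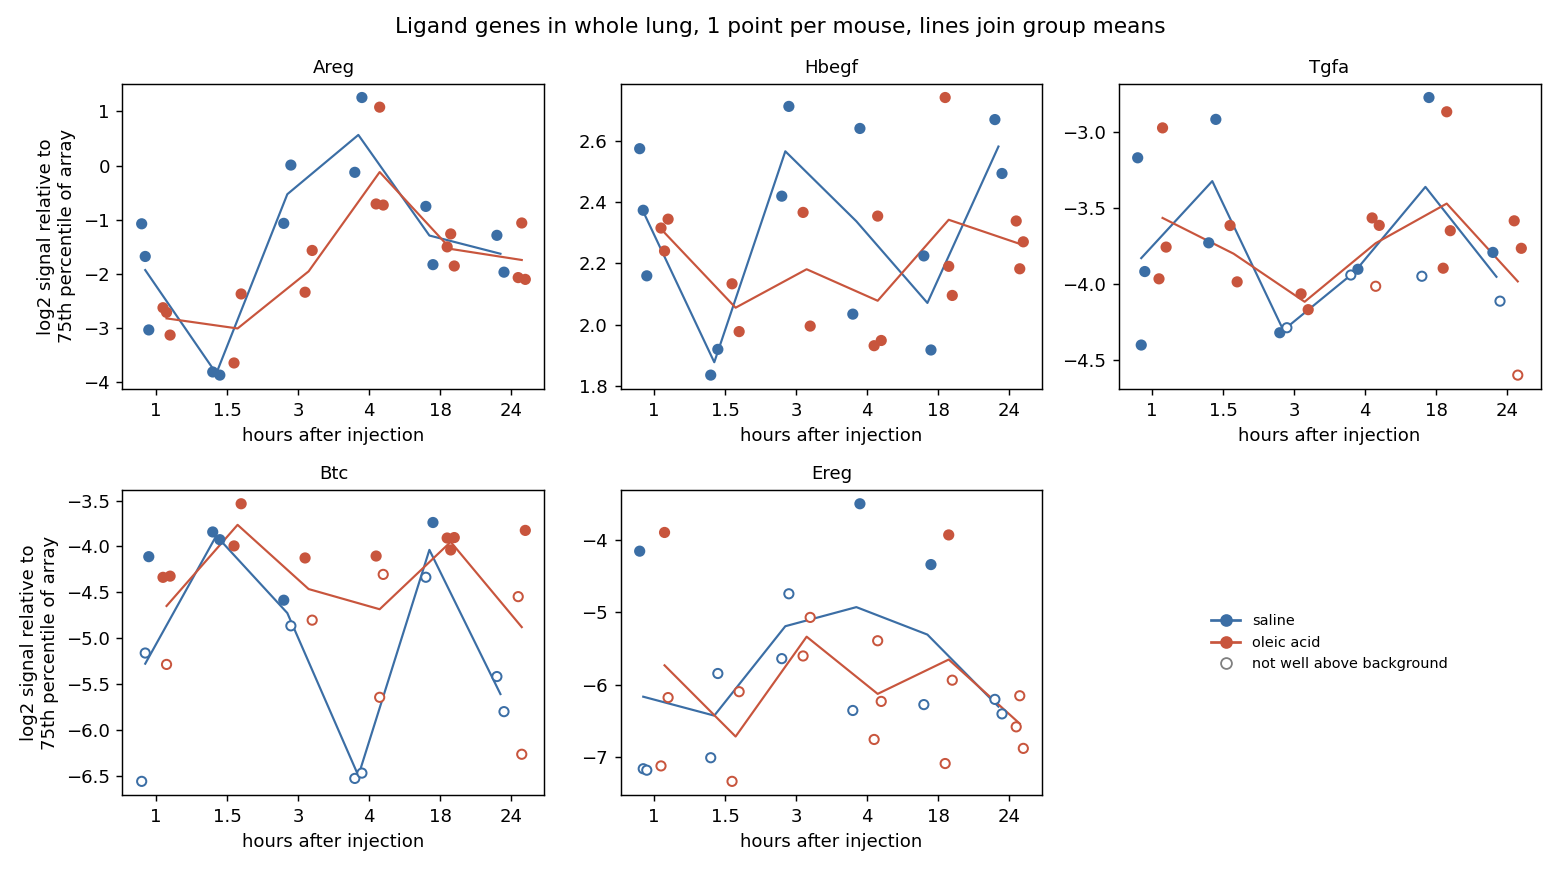
Log2 signal of the 5 ligands relative to the 75th percentile of each array (vertical axis) at each time in hours, with 1 point per mouse, saline in blue and oleic acid in red, open points not well above background, and lines joining group means. Areg is lowest in saline at 1.5 h (mean -3.84) and highest at 4 h (mean 0.56 with saline), Hbegf stays between 1.83 and 2.74, and most Ereg points are open.

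Hbegf, a ligand that is also held at the cell surface by heparan sulphate, was detected on all 29 arrays and stayed within a narrow band. Its values ran from 1.83 to 2.74 with a median of 2.24, and its group means spanned 1.63-fold. The lowest pair was again saline at 1.5 h, with 1.83 and 1.92, and oleic acid at 1.5 h read 2.13 and 1.98. At 3 h the saline mice read 2.42 and 2.71 and the oleic acid mice 2.37 and 2.00. At 24 h the saline mice read 2.67 and 2.49 and the oleic acid mice 2.34, 2.18 and 2.27. All saline mice at 3 h and 24 h lay above all oleic acid mice of those times, by a small margin at 3 h. From 1.5 h to 3 h the difference over both arms was 0.41 (0.07 to 0.74), which missed the threshold (adjusted p = 0.193), and the F tests over time gave adjusted p of 0.180 in saline and 0.816 in oleic acid.

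Btc, a ligand of both EGFR and ErbB4, was detected on 15 of 29 arrays. It was detected on every array of 3 groups (both 1.5 h groups and oleic acid at 18 h) and on none in saline at 4 h or 24 h. At 1.5 h it read -3.84 and -3.93 with saline and -3.99 and -3.54 with oleic acid. At 4 h it read -6.53 and -6.47 with saline, both below background, and -4.10, -5.64 and -4.30 with oleic acid, where only the first was detected. At 18 h it read -4.33 and -3.74 with saline, the first not detected, and -3.91, -4.04 and -3.90 with oleic acid. In saline mice the fitted difference from 4 h to 18 h was 2.46 (1.03 to 3.89, adjusted p = 0.0384), against 6.34% of features called. Since both 4 h arrays were below background, the difference was also taken against the lowest detected signal on those arrays, which gave 1.13-fold. That value uses the mean of both 18 h arrays, of which 1 was not detected, so it is not a firm lower limit. The call was lost without any 1 of its 4 arrays, and with another background correction (normexp) the difference was -0.06.

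Tgfa, the ligand long known as a growth factor of epithelium, was detected on 23 of 29 arrays, and Ereg, a ligand typical of inflamed or growing tissue, on 5. Tgfa ran from -4.60 to -2.77 with a median of -3.89 and no comparison of it passed the threshold. Its 5 highest arrays were the 5 with over 70% of spots above background, where its mean was -2.94 against -3.94 on the other 24. Ereg was detected in saline at 1 h (replicate 1, -4.15), 4 h (replicate 2, -3.50) and 18 h (replicate 2, -4.34) and in oleic acid at 1 h (replicate 2, -3.90) and 18 h (replicate 2, -3.93). In 7 of the 12 groups, both 24 h groups included, no array detected it. Of its 5 detections 4 were on arrays with over 70% of spots above background, the exception being saline at 4 h. Ereg was therefore not tested, and its values below background carry no order.

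**Figure D2:**
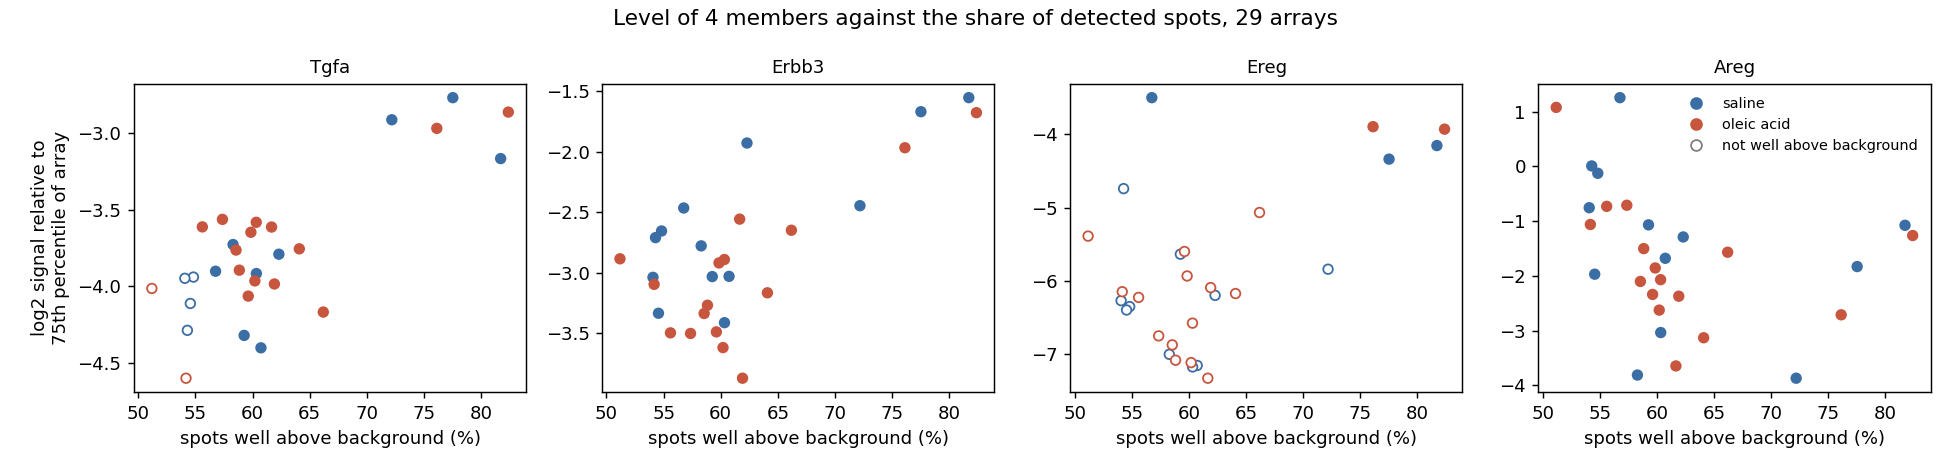
Log2 signal minus its array's 75th percentile (vertical axes) against the share of spots well above background in percent (horizontal axes) for Tgfa, Erbb3, Ereg and Areg on 29 arrays, saline in blue and oleic acid in red, open points not well above background. Tgfa (r = 0.786), Erbb3 (r = 0.713) and Ereg (r = 0.541, with 24 of 29 values below background) are high on the arrays above 70%, while Areg (r = -0.324) is not.

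Among the receptors Egfr was the one with calls over time, and its 3 probes gave different courses. With the probe of NM_207655, the one tested because its mean was highest, it was detected on all 29 arrays and its group means ran from 0.33 ± 0.11 (SD, n = 3) in oleic acid at 24 h to 1.49 ± 0.08 (n = 3) in oleic acid at 4 h, a 2.23-fold range against a pooled SD of 0.24. At 1 h it read 0.72, 1.41 and 0.57 with saline and 0.53, 0.35 and 0.85 with oleic acid. At 1.5 h it read 0.45 and 0.87 with saline and 0.52 and 0.90 with oleic acid. At 3 h it read 1.04 and 1.05 with saline and 0.90 and 1.41 with oleic acid. At these times the arms overlapped, and the 3 h mice of both arms lay toward the upper part of the range. At 4 h it read 1.45 and 1.22 with saline and 1.40, 1.5 and 1.55 with oleic acid. At 18 h it read 0.50 and 0.51 with saline and 0.56, 0.42 and 0.33 with oleic acid. At 24 h it read 0.91 and 0.60 with saline and 0.28, 0.45 and 0.24 with oleic acid. Every 4 h mouse of both arms lay above every 18 h and 24 h mouse, and at 24 h the oleic acid mice were all below the saline mice. From 18 h to 24 h in oleic acid mice neither Egfr nor any other member passed, and 0.0119% of all features did.

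In oleic acid mice Egfr on this probe fell by 0.60 log2 units from the mean of 1 to 4 h to the mean of 18 and 24 h (95% interval -0.86 to -0.34, 1.52-fold, limma adjusted p = 0.00914), where 5.34% of all features passed and 3.24% passed as lower. It also differed over the 6 times in oleic acid mice (F test, adjusted p = 0.00788), and from 1 h to 4 h it rose by 0.91 (0.49 to 1.32, 1.88-fold, adjusted p = 0.0162). In saline mice the difference from 4 h to 18 h was -0.83 (-1.34 to -0.32, 1.78-fold, adjusted p = 0.0467), while the late against early difference of -0.35 (-0.66 to -0.05) had an adjusted p of 0.240. Of all features 6.34% passed from 4 h to 18 h in saline mice and 4.6% as lower, and for the late against early comparison 2.69% passed and 1.37% as lower. The late against early change differed between the arms by -0.25 (-0.65 to 0.16, adjusted p = 1), so it was not shown to differ between oleic acid and saline. The late against early fall in oleic acid mice passed in each of 16 fits without 1 array (-0.66 to -0.54), but with all 31 arrays (-0.59) or with arrays centred on their median (-0.65) its adjusted p was 0.700 and 0.794. The saline fall from 4 h to 18 h was lost without any 1 of its 4 arrays, and the oleic acid rise from 1 h to 4 h without oleic acid 1 h replicate 1 or 2 or 4 h replicate 3. All late oleic acid arrays were on slide 4, so late time and slide cannot be told apart there, and with slide as a fixed term the rise from 1 h to 4 h became -0.02.

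The 2 probes of NM_007912 gave other time courses. A_55_P1956863 read -0.86, -0.19 and -1.05 at 1 h with saline and -0.96, -0.67 and -0.92 with oleic acid. It read -0.71 and -0.60 at 4 h with saline and -0.83, -0.55 and -0.68 with oleic acid, and at 18 h -0.84 and -1.26 with saline and -1.40, -1.15 and -1.42 with oleic acid. With this probe the 18 h mice were again below the 4 h mice in both arms, but the late against early difference in oleic acid mice was -0.29 (-0.54 to -0.04) with an adjusted p of 0.193 over 34928 probes. A_55_P1956862 read -1.02, -0.77 and -0.63 at 1 h with saline and -1.93, -1.17 and -1.56 with oleic acid, so at 1 h every saline mouse lay above every oleic acid mouse. That difference was -0.75 (-1.12 to -0.38), the adjusted p was 1, and no feature of the whole table passed at 1 h. This probe fell by 0.84 from 1 h to 4 h in saline mice (-1.25 to -0.42, adjusted p = 0.0401), and its late against early difference in oleic acid mice was -0.06 (adjusted p = 0.856). Over 29 arrays the tested probe correlated with A_55_P1956863 at r = 0.467 and with A_55_P1956862 at r = -0.0304, so the Egfr results above hold for the tested probe and not for the gene as a whole.

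Erbb2, the shared partner of the other receptors, was the steadiest member, with values of 0.57 to 1.27, a median of 0.94 and group means within 1.34-fold. At 4 h it read 1.16 and 0.93 with saline and 0.73, 0.69 and 0.56 with oleic acid, so the arms did not overlap, and the oleic acid group at 4 h was the lowest of all 12. At 18 h it read 0.92 and 0.94 with saline and 0.96, 1.04 and 1.05 with oleic acid, again without overlap but the other way. Erbb3, the receptor with little kinase activity, was detected on all 29 arrays at -3.87 to -1.55. Its 3 highest arrays, saline at 1 h replicate 1 (-1.55), saline at 18 h replicate 2 (-1.67) and oleic acid at 18 h replicate 2 (-1.68), were among the 5 with over 70% of spots above background. Its mean on those 5 was -1.86 against -3.05 on the other 24. No time comparison of Erbb2 or Erbb3 passed the threshold, and from 1 h to 4 h in oleic acid mice the Erbb2 difference was -0.37 (-0.66 to -0.07, adjusted p = 0.151).

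**Figure D3:**
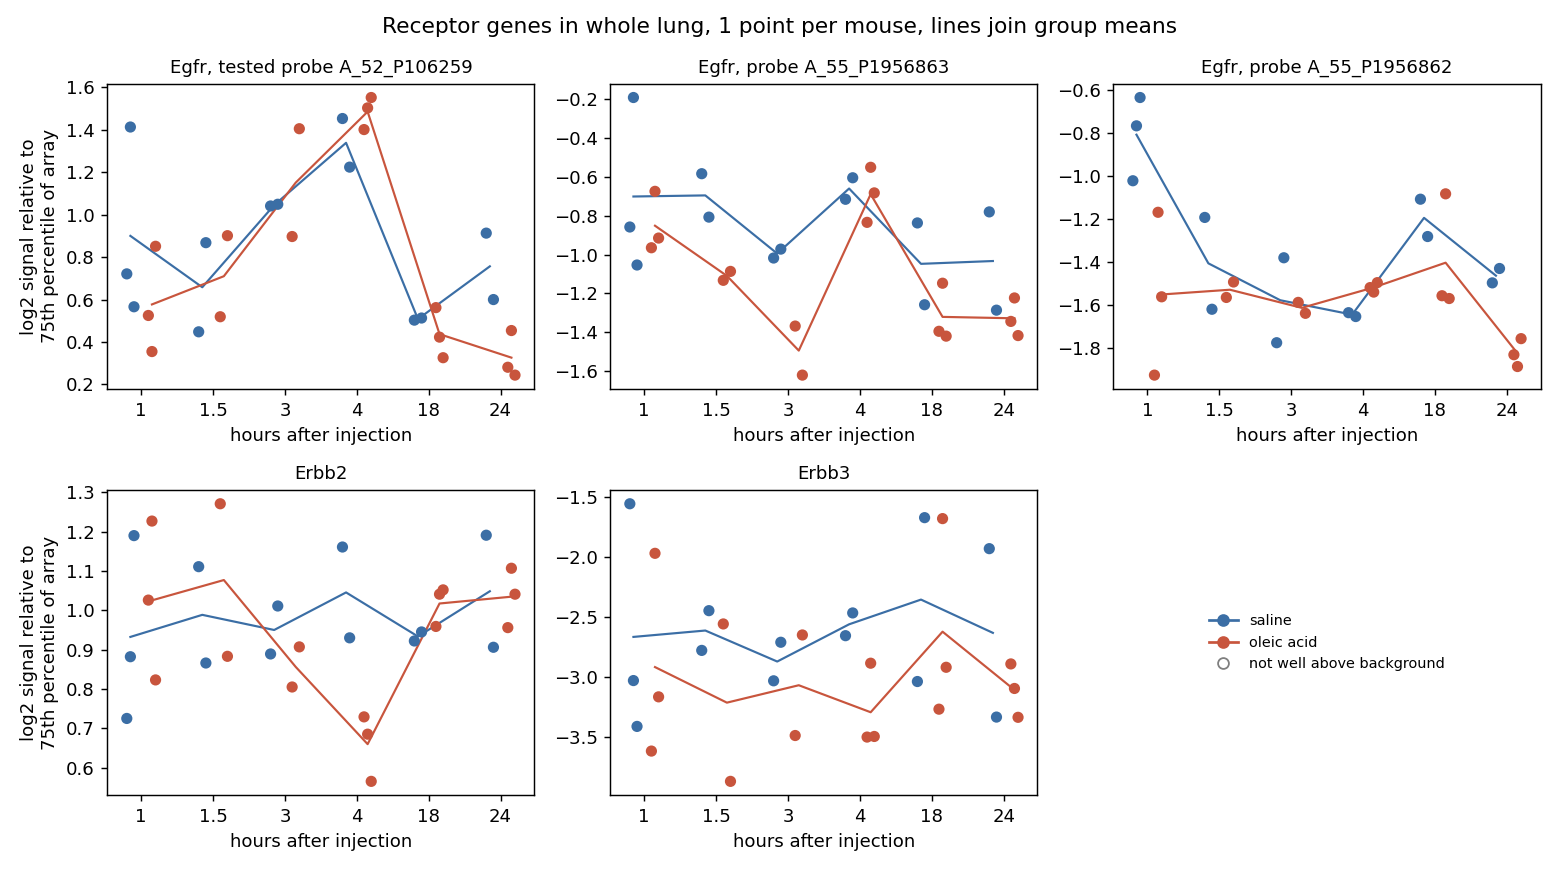
Log2 signal of the receptors relative to the 75th percentile of each array (vertical axis) at each time in hours, with the 3 Egfr probes drawn apart, 1 point per mouse, saline in blue and oleic acid in red, and lines joining group means. The tested Egfr probe peaks at 4 h (means 1.34 with saline and 1.49 with oleic acid) and is lowest in oleic acid at 24 h (0.33), while the other 2 Egfr probes follow other courses and Erbb2 stays between 0.57 and 1.27.

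The contrast of oleic acid and saline mice at the same time is the one the study was built for. None of the 7 members tested passed at any time, in the early or late mean, in the difference of these, or in the F tests of treatment over 6 times (adjusted p = 1 for each member) or of treatment by time (adjusted p = 1). The background was as low: the share of all 25115 features passing was 0% at 1, 1.5 and 3 h, 0.0199% at 4 h and at 18 h and 0.0159% at 24 h. It was 0% for the early mean and for the difference of late and early, 0.00796% for the late mean, 0.0159% for the F test of treatment and 0.00796% for that of treatment by time, so these counts of 0 do not set the members apart. At an unadjusted p under 0.05 the limma fit gave 1 member at 3 h (Areg), 2 at 4 h (Btc and Erbb2), 1 in the early mean (Btc) and 0 in the other treatment comparisons, beside 1081, 357, 1582 and 1920 of all features at 1, 1.5, 3 and 4 h and 1861 in the early mean. The early mean of Btc includes the 4 h saline arrays that were below background. The difference for Areg at 3 h was -1.42 (-2.85 to -0.00, adjusted p = 0.793). The fit gave 1.81 for Btc at 4 h (0.50 to 3.12, adjusted p = 0.647), but both saline arrays were below background, and against the lowest detected signal on them no difference was supported.

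The intervals show what sizes these groups could still hold. For Areg they ran from -2.05 to 0.27 at 1 h, from -0.59 to 2.25 at 1.5 h and from -1.98 to 0.61 at 4 h, and at 18 h and 24 h from -1.54 to 1.05 and from -1.41 to 1.18. The last 2 of these intervals hold a 2-fold change in either direction. They were narrower for Hbegf (-0.46 to 0.32 at 1 h and -0.75 to 0.12 at 24 h) and Erbb2 (-0.20 to 0.39 at 1 h and -0.34 to 0.31 at 24 h). The Egfr difference was -0.32 (-0.74 to 0.09) at 1 h and -0.43 (-0.89 to 0.03) at 24 h. With arrays weighted by their spread in limma, 2 members passed at 1 h, Areg at -0.94 (adjusted p = 0.0464) and Egfr at -0.72 (adjusted p = 0.00144). The oleic acid mice at 1 h had weights of 10.3, 0.38 and 1.31, so replicate 1 largely set the level of that group. The share of all features given above for 1 h is from the fit without weights, so these calls stand without a share. Erbb3 was lower with oleic acid in all 6 fitted differences (-0.73 to -0.20), each with an interval that included 0.

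Complete separation of the 2 arms was common in groups this small. These counts take Egfr by its tested probe. The shares given here are between arms at 1 time, and none was taken for separations between times. At 1 h no member separated (4.59% of features did). At 1.5 h Areg and Hbegf were higher in both oleic acid mice than in both saline mice (25% of features separated). At 3 h Areg and Hbegf were lower and Tgfa was higher with oleic acid (35.6%), at 4 h Erbb2 and Erbb3 were lower (22.8%), at 18 h Erbb2 was higher (12%) and at 24 h Hbegf and Egfr were lower (21.6%). Btc is left out at 4 h, where both saline arrays and 2 of 3 oleic acid arrays were below background, and at 3 h 1 of the 2 saline Tgfa values was. Of the Egfr probes not tested, A_55_P1956862 separated as lower with oleic acid at 1 h and 24 h and as higher at 4 h, and A_55_P1956863 as lower at 1.5 h and 3 h.

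**Figure D4:**
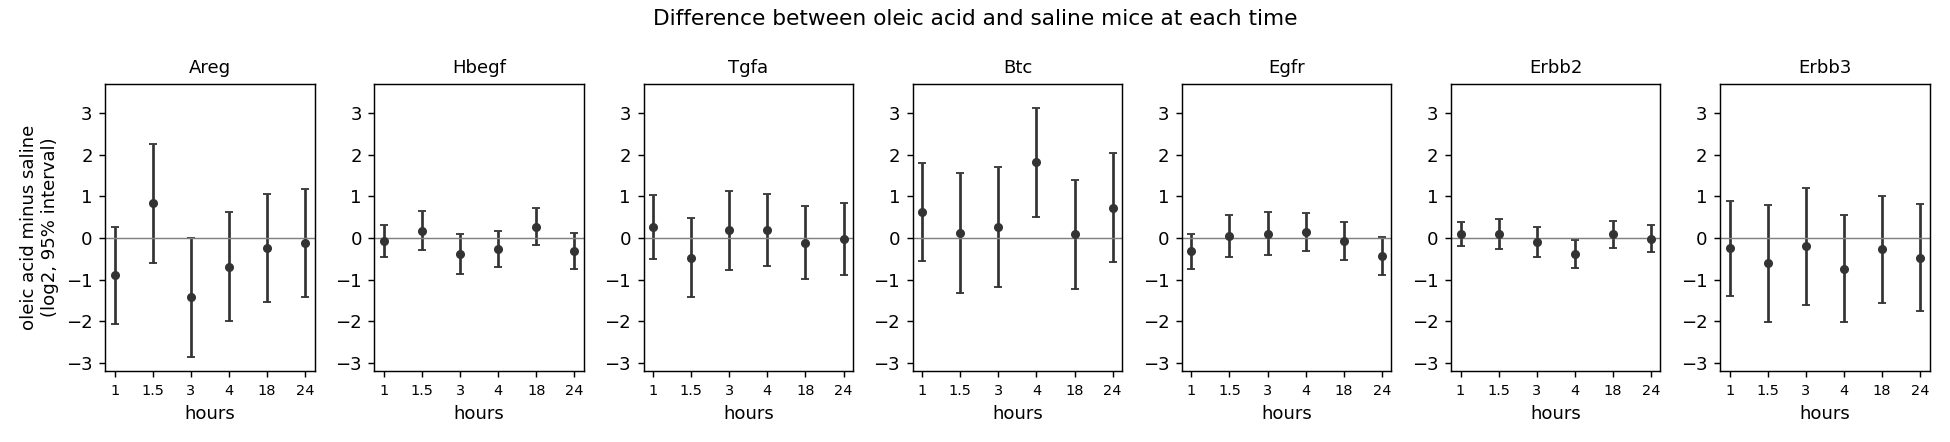
Oleic acid minus saline in log2 units (points, with 95% intervals from limma as bars) at each of 6 times in hours for the 7 members tested; the horizontal line marks no difference. Only the intervals of Areg at 3 h (-2.85 to -0.00), Btc at 4 h (0.50 to 3.12, with saline below background) and Erbb2 at 4 h (-0.71 to -0.06) leave out 0, and none passed after adjustment.

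Among the other ligands and receptors of the family, Egf was called lower at late times in both arms and Nrg4 in oleic acid mice. Of the list of 7 (Egf, Epgn, Nrg1 to Nrg4 and Erbb4), 5 passed the filter; Nrg3 and Erbb4 were each detected on 2 of 29 arrays. Egf, the founding ligand, was lower at 18 and 24 h than at 1 to 4 h. Its log2 difference was -0.95 (-1.48 to -0.42, limma adjusted p = 0.0485) in saline mice, where 2.69% of features passed. In oleic acid mice it was -0.79 (-1.25 to -0.34, limma adjusted p = 0.0383), where 5.34% passed and 3.24% passed as lower. Egf was above background on 1 of 2 saline arrays at 18 h, on 1 of 2 at 24 h and on 2 of 3 oleic acid arrays at 24 h, and on all other arrays. Leaving out single arrays ended the Egf call in 12 of 13 fits in saline and 9 of 16 in oleic acid. The other alternatives ended it in 13 of 18 in saline and 9 of 18 in oleic acid. Nrg4, a ligand of ErbB4, read -2.90, -2.87 and -2.83 at 18 h in oleic acid mice, the lowest group, and -1.97, -1.2 and -0.95 at 4 h, the highest. Its late against early difference in oleic acid mice was -0.79 (-1.14 to -0.44, limma adjusted p = 0.00994) and passed in each of 16 fits without 1 array. The Nrg4 call was lost in 6 of 19 other alternatives. Epgn (27 of 29 arrays) and Nrg1 and Nrg2 (29 of 29) passed no time comparison.

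Of 13 listed genes of ligand shedding and trafficking, 12 were tested. Adam17, the main sheddase, read -4.56 to -1.51 and its regulator Rhbdf2 0.62 to 2.23, and neither passed any comparison. Timp3, an inhibitor of Adam17, read 6.19, 6.05 and 6.32 at 4 h in oleic acid mice (slide 3) and 5.46, 5.28 and 5.50 at 18 h (slide 4). In oleic acid mice its late against early difference was -0.46 (-0.64 to -0.27, adjusted p = 0.00571), kept in each of 16 fits without 1 array, and that of Rhbdf1 was -0.33 (adjusted p = 0.0458), lost in 12 of 16. That is 2 of 12, both lower, with a list median of -0.13 against -0.03 over all features, of which 3.24% were called lower. From 4 h to 18 h in saline mice 3 of 12 were lower, with differences of -1.08 for Adam15, -0.76 for Rhbdf1 and -0.64 for Timp3 (adjusted p 0.0200 to 0.0339), with a median of -0.21 against -0.06 over all features, of which 4.6% were called lower; each call was lost in 3 of 4 fits without 1 array. Of the 28 adaptors and kinases of the receptor's signalling core, Stat3 (-1.35, adjusted p = 0.0124) and Ptpn11 (-0.54, adjusted p = 0.0323) were lower in that comparison. That is 2 of 28, beside 4.6% of all features called lower there, and both calls were also lost in 3 of 4 such fits.

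Of 22 listed genes of receptor feedback and degradation, 21 were tested, and Errfi1, the feedback inhibitor of EGFR kinase also called Mig6, was among those that fell at late times in both arms. It read 4.03, 5.01 and 3.99 at 1 h with saline and 4.08, 3.68 and 5.01 with oleic acid. At 3 h it read 5.54 and 5.82 with saline and 5.40 and 6.18 with oleic acid. At 18 h it read 3.36 and 3.21 with saline and 3.35, 3.93 and 3.99 with oleic acid. The 3 h mice lay above all 1 h and 18 h mice in both arms, but no share of all features was taken for such separations of times. From 1 to 4 h to 18 and 24 h its difference was -1.74 (-2.37 to -1.11, adjusted p = 0.00450) in saline mice, in each of 13 fits without 1 array, and -1.05 (-1.59 to -0.51, adjusted p = 0.0217) in oleic acid mice, lost without oleic acid 1.5 h replicate 2, 3 h replicate 3, 18 h replicate 1 or 24 h replicate 1 or 3. Ptpn1, a phosphatase of the receptor, was lower too, with differences of -0.40 in saline (adjusted p = 0.0375) and -0.45 in oleic acid (adjusted p = 0.00582), the first lost in 8 of 13 fits without 1 array. That is 2 of 21 lower in each arm, with list medians of -0.10 in saline and -0.06 in oleic acid against 0.02 and -0.03 over all features, of which 1.37% and 3.24% were called lower.

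Of 21 transcripts known to follow ERK signalling, 19 were tested, and 5 of them were higher at 3 h than at 1.5 h over both arms, as Areg was, among them Egr1 by 2.57 (1.85 to 3.29, adjusted p = 0.000806), Fos by 2.16 (adjusted p = 0.0209), Epha2 by 1.00 (adjusted p = 0.0146) and Plaur by 0.66 (adjusted p = 0.0442). The list median was 0.47, with 17 of 19 above 0, against 0.08 over all features, of which 1.31% were called. This comparison was among those added after the values had been seen, so the rise shared with Areg is a description. Egr1, an immediate early factor, read 0.40 and 1.11 with saline and 1.59 and 1.1 with oleic acid at 1.5 h, and 3.89 and 2.69 with saline and 4.17 and 3.73 with oleic acid at 3 h. The call of Egr1 passed in each of 8 fits without 1 array, while those of Epha2, Fos and Plaur were lost in 4, 5 and 6. From 1 h to 4 h in saline mice Epha2 (1.29), Phlda1 (1.29) and Plaur (1.02) were higher, 3 of 19, with a median of 0.57 against 0.07 over all features, of which 2.27% were called. In oleic acid mice Fos (2.44) and Egr1 (1.81) were higher and Etv5 (-0.60) lower, 3 of 19, where 3.78% of all features were called. These calls in 1 arm were lost in 2 to 5 of the fits without 1 array. Plau, the urokinase gene, was not well above background on any oleic acid array at 1, 3 or 4 h and was so on 3 of 3 at 18 h and 2 of 3 at 24 h, so no size is given for its late against early call in that arm. None of the genes in these lists passed any comparison of oleic acid with saline.

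**Figure D5:**
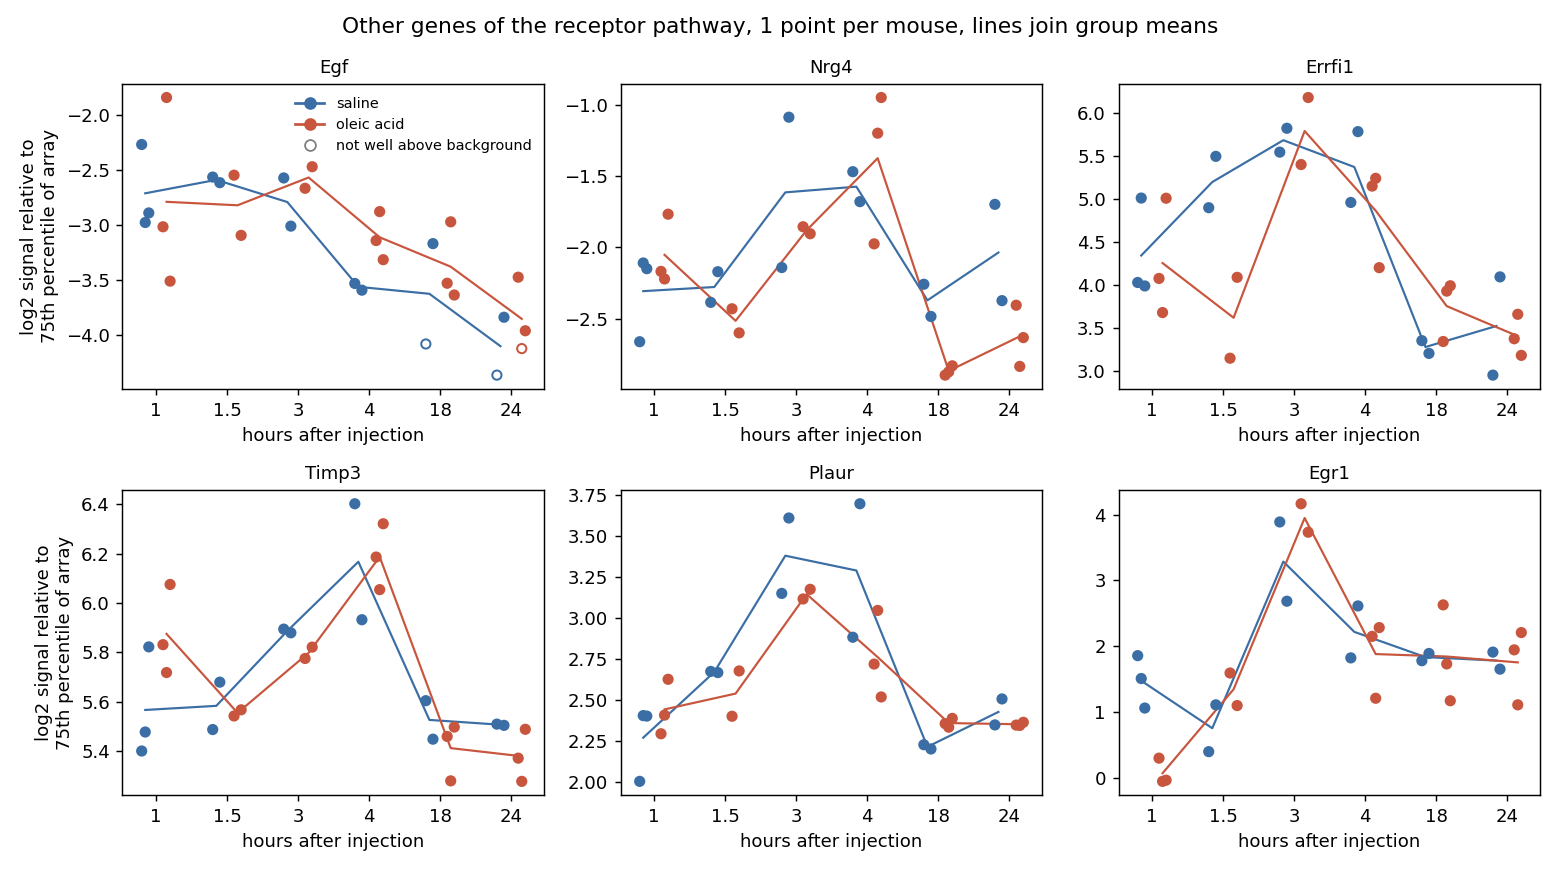
Log2 signal relative to the 75th percentile of each array (vertical axis) of pathway genes at each time in hours, 1 point per mouse, saline in blue and oleic acid in red, open points not well above background, and lines joining group means, for Egf, Nrg4, Errfi1, Timp3, Plaur and Egr1. Errfi1 is high at 3 h (5.40 to 6.18) and low at 18 h (3.21 to 3.99), and Egr1 is high at 3 h (2.69 to 4.17) in both arms.

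Promoters are shown for Areg and Errfi1, whose group means were both higher at 4 h than at 18 h in each arm, and for Egfr, whose tested probe peaked at 4 h. Errfi1 was chosen for this after its values were seen. Each run is the 250 bases before a RefSeq start on GRCm38.p6, 5′ to 3′ on the gene's strand, with matches to the motifs searched in capitals. Motifs were searched on both strands, a match on the other strand appears as its reverse complement, and no matches of different motifs overlapped. The cyclic AMP response element was searched as TGACGTCA and was held by 1.55% of 32851 windows of the same length. The AP-1 site was searched as TGANTCA and was held by 6.75% of those windows. The E-box was searched as CACGTG and was held by 6.02% of them. The TATA box was searched as TATAAA and was held by 12.4% of them. The GC box was searched as GGGCGG and was held by 32.7% of them. The Areg window (chr5:91139349-91139598, plus strand) held the cyclic AMP response element 61 bases, the GC box 52 bases and the TATA box 31 bases before the start. The window of the second Errfi1 start (chr4:150854820-150855069, plus strand) held the cyclic AMP response element at 51 bases, the TATA box at 28 bases and 3 GC boxes on the other strand, of which 2 overlapped each other; its first start held none of the 5 motifs. The Egfr window (chr11:16751953-16752202, plus strand) held 1 GC box at 9 bases, also on the other strand. Of the other members with a promoter entry, Tgfa held 2 GC boxes and Btc and Erbb2 none of the 5 motifs. A match is a description of letters and not a bound site.
Areg: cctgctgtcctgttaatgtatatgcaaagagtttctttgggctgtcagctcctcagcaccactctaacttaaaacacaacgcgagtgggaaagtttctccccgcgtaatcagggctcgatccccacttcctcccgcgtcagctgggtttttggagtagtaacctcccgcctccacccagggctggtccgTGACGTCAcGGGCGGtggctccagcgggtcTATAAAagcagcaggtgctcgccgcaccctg
Errfi1: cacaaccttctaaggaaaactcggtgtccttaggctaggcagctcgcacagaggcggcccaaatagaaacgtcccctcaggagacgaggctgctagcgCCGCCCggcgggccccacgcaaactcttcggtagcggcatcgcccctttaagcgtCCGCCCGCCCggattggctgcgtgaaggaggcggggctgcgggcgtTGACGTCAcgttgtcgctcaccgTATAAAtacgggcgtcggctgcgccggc
Egfr: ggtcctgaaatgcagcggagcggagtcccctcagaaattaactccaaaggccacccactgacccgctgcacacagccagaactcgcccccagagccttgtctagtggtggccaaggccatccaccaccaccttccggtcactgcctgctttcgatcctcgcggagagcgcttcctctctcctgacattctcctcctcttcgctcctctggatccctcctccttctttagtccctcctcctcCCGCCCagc

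Across the 29 arrays the members did not form 1 group. Egfr is taken here by its tested probe alone, which correlated with A_55_P1956863 at r = 0.467 and with A_55_P1956862 at r = -0.0304. Areg and Egfr went together at r = 0.54, Areg and Btc in opposite directions at r = -0.576, Egfr and Erbb2 at r = -0.539, and Tgfa and Erbb3, the pair that followed the share of spots above background, at r = 0.616. These are descriptions over arrays that share slides and times, and 14 of the 29 Btc values behind them and behind the Btc neighbours named next were below background. Among 16463 named features the most alike to Areg were Pi4k2b (r = 0.892), Zfp777 (0.888) and Kdm5a (0.882), and to Egfr Mt2 (0.915), a metallothionein, Bcl2l1 (0.912), a survival factor, and Hif3a (0.906). The features most like Btc were Cmpk1 (0.881), Gnpnat1 (0.88) and Frk (0.868). Those most like Hbegf, Tgfa, Erbb2 and Erbb3 were Pdzd4 (0.861), Cela1 (0.856), Gipc1 (0.871) and Gm4312 (0.913).

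Markers of blood and other cells also differed over time. All 4 B cell markers were called lower at 4 h than at 1 h in oleic acid mice (median -1.13), where 3.78% of all features were called. In saline mice 2 of 4 were called lower (median -1.11), where 2.27% were called. Their mean level at 4 h was 1.25 to 2.15 in saline and 1.78 to 1.81 in oleic acid mice. At 1 h it was 2.81 to 3.09 over both arms. That mean level correlated with Areg at r = -0.58. The same B cell mean correlated with the tested Egfr probe at r = -0.58. Areg also correlated with the mean of 4 red cell markers at r = 0.61 and with that of 5 mesothelial markers at r = -0.58. With 3 markers of group 2 innate lymphoid and type 2 T cells it was r = 0.58. The other 3 of that list, Il13, Il5 and Il9r, did not pass the filter. For the other immune lists r with Areg was -0.06 (mast cell and basophil), 0.23 (regulatory T), -0.18 (T and NK), 0.19 (neutrophil) and -0.38 (macrophage and monocyte). In saline mice the mean level of the liver markers was 2.99 at 1 h (range 0.57 to 5.39) and -0.75 at 4 h, with 1 of 4 called. The neutrophil markers differed by a median of -1.36 from 4 h to 18 h in saline mice, with 1 of 6 called. Of all features 2.27% and 6.34% were called in these comparisons, in that order. The part of cell numbers in the Areg and Egfr differences was not tested.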

How the data were processed

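Total lung RNA of 31 separate mice (200 ng, labelled with Cy3) was hybridised to 31 one-colour Agilent arrays. Scanner output was deposited by the authors as processed signal intensity per spot, which per the file headers were background-subtracted in Agilent's Feature Extraction software, version 10.5.1.1. The flags for spots well above background, saturated or outlying were deposited with it and used as other values, 0 or 1 per spot. A table of log2 values deposited by the authors was used as an alternative. Its sorted columns differed from each other by at most 0.0179. Per array its values correlated with the log2 processed signals at r = 0.594 to 0.984.

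From these, log2 processed signal minus each array's 75th percentile over non-control spots was computed, outlier spots were dropped and spots of a probe averaged. Probes were named by the current RefSeq symbol of their accession (26582 of 55681) or the file's symbol (3094), and 26005 stayed unnamed. A probe was detected on an array where most of its spots were well above background. Probes detected throughout 1 or more groups were kept, and a gene took its kept probe of highest mean, giving 25115 features. One model of 12 group means over 29 arrays was fitted with limma 3.58.1 in R 4.3.3 (17 residual degrees of freedom), with Benjamini-Hochberg adjustment over all features and a threshold of 0.05, and was tested on simulated data. Arrays with a spike-in slope outside 0.8 to 1.2 were left out. A bound for a probe below background was set against the lowest signal among probes well above background on the same arrays.

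Besides the members, pathway genes were named where a comparison called them (1 of these is not reported here) or as detected members of the listed families, and the 3 features most correlated with each member were named. The members, gene lists and comparisons were chosen with earlier results of these data known. Alternatives covered arrays, normalization, background correction, filter, probe choice, threshold, slide and each array left out. Depth is not defined for arrays; the number of mice per group, 2 or 3, limits the precision. Replicate numbers shared by the groups did not pair the mice: the labels name no pairing, and the correlations of same-numbered arrays ran from -0.763 to 0.621.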

Additional observations from a re-analysis of the deposited data

Results flagged for a closer look

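For Areg, the difference between oleic acid and saline took opposite signs at neighbouring times with every mouse on its side: 0.83 log2 units at 1.5 h, where both oleic acid mice were higher, and -1.42 at 3 h, where both were lower. Hbegf did the same, with 0.18 at 1.5 h, -0.38 at 3 h and -0.32 at 24 h. Erbb2 had -0.39 at 4 h and 0.08 at 18 h. The difference between these times alone was not tested. The F test of treatment by time over all 6 times gave an adjusted p of 1 for each of these genes, and between 12% and 35.6% of all features separated completely at the times named.

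Both left-out arrays held member values above every saline array and others below every saline array. On oleic acid at 3 h, replicate 2, where 99.64% of spots were well above background, Ereg read -1.12 (highest saline array -3.50), Tgfa -0.74 (-2.77), Btc -2.25 (-3.74), Erbb3 0.02 (-1.55) and Egfr probe A_55_P1956862 -0.09 (-0.63). On the same array Hbegf read 0.111 (lowest saline array 1.835), the tested Egfr probe -0.831 (0.448) and Erbb2 -0.006 (0.725). On oleic acid at 1.5 h, replicate 3, with 15585 outlier spots, the tested Egfr probe read 2.64 (highest saline array 1.45), with 5 of its 10 spots marked as outliers. There Areg read -4.262 (lowest saline array -3.869), Tgfa -5.177 (-4.4), Erbb2 -0.118 (0.725) and Egfr probe A_55_P1956862 -2.886 (-1.777). Ereg and Btc also read below every saline array there, but neither was detected. Groups of 2 or 3 mice were not examined for single outlying mice.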

How the results depend on the processing

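No member passed a comparison of oleic acid with saline under any alternative except array weights, where Areg and Egfr made 2 calls at 1 h and the F test of treatment over 6 times made 1. No share of all features is given beside these weighted calls. The main counts of members called were 1 for oleic acid late against early, 2 for saline 18 h against 4 h, 1 for saline 4 h against 1 h, 2 for oleic acid 4 h against 1 h, 1 for 3 h against 1.5 h, 1 for the F test in saline and 2 for that in oleic acid. Leaving out 1 array gave 1 to 1, 0 to 0, 0 to 0, 0 to 2, 0 to 1, 1 to 2 and 1 to 2 in that order, and 0 to 0 in every treatment comparison.

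Saline 18 h against 4 h was the least stable: it gave 1 call with the percentile over probes detected on all arrays, a minimum difference of 1, array weights, each probe as its own feature, the filter on every array, the mean of kept probes, the slide as a fixed block and the replicate block. It gave 0 with a threshold of 0.01, all 31 arrays, without the 5 arrays over 70%, median centring, no filter, normexp, the groups compared alone, quantile normalization, the deposited table and within 1 slide. Saline 4 h against 1 h gave 0 with the percentile over probes detected on all arrays, 0.01, all 31 arrays, without the 5 arrays, median centring, no filter, the groups alone, quantile and the slide block. Oleic acid 4 h against 1 h gave 0 with 0.01, all 31 arrays, without the 5 arrays, the groups alone and the slide block; it gave 1 with a minimum difference of 1, the mean of kept probes and median centring, and 4 with array weights. The comparison of 3 h with 1.5 h gave 0 with 0.01, without the 5 arrays, median centring, no filter, normexp, the groups alone, quantile, the slide block, the deposited table and within 1 slide. Oleic acid late against early gave 0 with a minimum difference of 1, all 31 arrays and median centring. The F test in saline gave 0 with 0.01, all 31 arrays, without the 5 arrays and the groups alone, and 4 with array weights. The F test in oleic acid gave 0 with all 31 arrays and median centring, and 1 with 0.01, without the 5 arrays and no filter.

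The sign turned for Btc in saline from 4 h to 18 h with normexp (-0.0596), where both 4 h arrays were below background, and for Egfr in oleic acid from 1 h to 4 h with the slide as a fixed block (-0.0201); for the second the cause was not tested. With median centring the median difference of all features in saline was -0.522 from 4 h to 18 h and 0.372 from 1 h to 4 h. In the main fit these medians were -0.056 and 0.0706. Median centring called 45 features in oleic acid late against early, compared with 1341. The replicate block changed no other count by over 1.5 times.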
